A study of Mus musculus with 4 samples.

Results

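The 10 genes described here, Fndc1, Eln, Abi3bp, Mfap4, Tnmd, Cilp2, Scx, Col14a1, Megf6 and Fbn1, encode components or regulators of tendon and elastic fibre matrix. They are 10 of the 31053 genes counted in 1 single-cell RNA sequencing library of mouse tibia. The genes were selected on these same data, as genes that lead a cluster of fibroblasts rich in Aspn (asporin, a small proteoglycan of fibrous tissue). Their high level in fibroblasts is therefore a description of the choice and not a finding. The choice also favours a higher level in the Aspn-rich cells than in other fibroblasts. What was not fixed by the choice is how the genes divide within the fibroblast clusters, and where they were found in osteoblasts, marrow stroma, vessels and cartilage.

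Elastic fibres are built from an elastin core, encoded by Eln, laid down on microfibrils. Fibrillin-1, encoded by Fbn1, is the backbone of microfibrils, and microfibril-associated proteins such as Mfap4 bind to them. Arteries, ligaments and skin depend on these fibres for recoil. Tendon is instead dominated by aligned collagen I fibrils. The transcription factor scleraxis, encoded by Scx, marks tendon progenitors, and tenomodulin, encoded by Tnmd, is a membrane protein of differentiated tenocytes. Col14a1 encodes a collagen that decorates collagen I fibrils, and Cilp2 a protein related to the cartilage intermediate layer protein. Fndc1 encodes a protein with fibronectin type III repeats, Abi3bp a matrix protein that binds Abl interactor 3, and Megf6 a protein with many epidermal growth factor-like repeats.

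The library came from pooled cells of 2 tibiae, proximal and distal parts with the growth plate included, of 1 male mouse at postnatal day 6. Its 4 deposited entries were counted together in 1 matrix. The genotype was Col10a1Cre, Rosa26-Tdtomato, Irx3 +/Δ and Irx5 +/-, called the Irx3/5 heterozygous control, so every cell described here carried these alleles and there was no wild-type group. Cre under Col10a1 acts in hypertrophic chondrocytes (HCs), so that HCs and their descendants express the tdTomato reporter, whose transcript ends with the WPRE element. With 1 library there is no replicate, no test was made, and every interval covers counting error only.

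All 10 genes were present in the matrix. Of 14181 barcodes, 8255 were kept, with 137250350 unique molecular identifiers (UMIs), a median of 13957 per cell and a range of 2623 to 85279. Clustering without the 10 genes gave 31 clusters, 15 of which were osteoblast-, stromal-, vascular- or chondrocyte-like and held 4352 cells. Names were given from marker lists and each cluster is called by its leading gene other than the 10. The fibroblast-like class had 271 cells in 2 clusters, an Aspn-rich cluster of 115 cells (median 8897 UMIs) and an Mfap5-rich cluster of 156 cells (median 9712 UMIs). Of 14 fibroblast markers, 9 reached 10 counts per 1000000 (CPM) in the Aspn-rich and 14 in the Mfap5-rich cluster, with sums of 23124 and 20339 CPM. All 11 immature osteoblast markers, among them Col1a1, Col1a2 and Postn, which fibroblasts also express, reached it in the Aspn-rich cluster too. They summed to 54439 CPM there and to 24805 CPM in immature osteoblast-like cells, so this list does not separate these cells from osteoblasts. Scrublet, which looks for barcodes that resemble a mixture of cells, marked 2 cells in each.

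The genes lie on separate chromosomes except Scx and Col14a1, both on chromosome 15. In the GENCODE M21 annotation of GRCm38, Tnmd spans chrX:133850980-133865577 on the plus strand and Megf6 chr4:154170730-154275713 on the plus strand. Fndc1 spans chr17:7738569-7827302 on the minus strand, Eln chr5:134702593-134747323 on the minus strand and Fbn1 chr2:125300594-125507993 on the minus strand. Scx (chr15:76457452-76459458, plus strand) lies inside Bop1, which is on the opposite strand, and Mfap4 (chr11:61485431-61488900, plus strand) overlaps Mapk7 on the opposite strand. Eln, Col14a1 and Fbn1 also overlap opposite-strand genes, and Megf6 overlaps Gm13132 on its own strand, where strand cannot help. The sources used here do not say whether strand was used in counting, so reads of opposite-strand pairs cannot be told apart if strand was not used. Col14a1 spans chr15:55307750-55520803 (plus strand), Abi3bp chr16:56477878-56690135 (plus strand) and Cilp2 chr8:69880369-69887687 (minus strand).

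Promoter sequences from RefSeq (build GRCm38.p6) were at hand for 5 of the 10 genes. The 3 whose windows overlap no annotated exon are shown, and these genes had different patterns, described below. Tnmd was almost restricted to fibroblasts, Fndc1 was found in nearly all Aspn-rich fibroblasts, and Megf6 was shared with cartilage. The windows run from 250 to 31 bases before the start that RefSeq gives, which for Tnmd and Megf6 is not the GENCODE start given above, 5′ to 3′ on the strand of the gene. Capitals mark matches to CANNTG, the E-box core to which basic helix-loop-helix factors such as scleraxis bind.
Tnmd, chrX:133850758-133850977, plus strand: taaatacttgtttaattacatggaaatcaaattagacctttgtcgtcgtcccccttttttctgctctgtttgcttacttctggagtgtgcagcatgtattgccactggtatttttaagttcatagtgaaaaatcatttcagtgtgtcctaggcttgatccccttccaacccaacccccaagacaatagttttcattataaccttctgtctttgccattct
Megf6, chr4:154170463-154170682, plus strand: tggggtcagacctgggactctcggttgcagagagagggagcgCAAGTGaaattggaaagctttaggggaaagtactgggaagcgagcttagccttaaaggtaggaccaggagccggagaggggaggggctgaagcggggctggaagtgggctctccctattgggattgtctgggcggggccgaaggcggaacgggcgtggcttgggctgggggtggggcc
Fndc1, chr17:7827333-7827552, minus strand: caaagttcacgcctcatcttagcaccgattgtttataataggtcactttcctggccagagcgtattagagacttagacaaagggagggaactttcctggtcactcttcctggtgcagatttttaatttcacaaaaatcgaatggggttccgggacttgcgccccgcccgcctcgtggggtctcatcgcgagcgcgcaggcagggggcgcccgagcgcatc
CANNTG reads the same class of words on both strands, and 62.1% of 32841 promoter windows of 220 bases held at least 1 match. The Megf6 window held 1, CAAGTG, beginning 208 bases before the RefSeq start, whereas the Tnmd and Fndc1 windows held 0. The window of Tnmd was 38.6% GC with 2 CpG dinucleotides, that of Megf6 62.7% with 10 and that of Fndc1 54.5% with 16, against medians of 51.8% and 5 over all windows. TATAAA, searched on both strands, had 1 match in the Fndc1 window and was found in 9.95% of all windows. The windows of Cilp2 and Fbn1 overlap annotated exons and are not shown.

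Levels below are UMIs of a gene summed over the cells of a cluster and divided by all UMIs of those cells, in CPM, with exact Poisson 95% intervals. Tnmd is the gene most confined to fibroblasts. Its level was 597 CPM (551 to 644) in the Aspn-rich and 1153 CPM (1103 to 1205) in the Mfap5-rich cluster, and at most 39.3 CPM elsewhere. Scx was 140 CPM (119 to 164) and 82.5 CPM (69.5 to 97.2) in the same clusters, and Cilp2 460 CPM (421 to 503) and 340 CPM (313 to 368). The order of the fibroblast clusters was thus reversed between Tnmd and the other tendon genes.

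Col14a1, Fndc1 and Abi3bp were high in both fibroblast clusters. Col14a1 reached 787 CPM (735 to 842) in the Aspn-rich and 630 CPM (593 to 668) in the Mfap5-rich cluster. Fndc1 reached 685 CPM (637 to 736) and 473 CPM (441 to 506), and Abi3bp 415 CPM (378 to 455) and 241 CPM (218 to 265). For each of the 3 the intervals of the clusters did not overlap and the Aspn-rich cluster was higher, which is the direction that the choice favours.

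Of the elastic fibre genes, Eln and Mfap4 were higher in the Aspn-rich cluster. Eln was 966 CPM (908 to 1026) there against 503 CPM (470 to 537), and Mfap4 746 CPM (695 to 799) against 378 CPM (349 to 408). Fbn1 went the other way, at 160 CPM (137 to 186) in the Aspn-rich and 1649 CPM (1589 to 1711) in the Mfap5-rich cluster. The level of Megf6 was 337 CPM (303 to 373) in the Aspn-rich and 43.8 CPM (34.5 to 54.9) in the Mfap5-rich cluster.

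Set against all other cells, with 10 CPM added to both levels, 9 of the 10 genes ranked among the top 43 genes of the Aspn-rich cluster, from Mfap4 at rank 3 to Scx at rank 43. Fbn1 was the exception at rank 596, with a fold of 2.25. In the Mfap5-rich cluster Fbn1 ranked 11 and Tnmd 2, whereas Megf6 ranked 765. In these clusters, then, Fbn1 does not lead the Aspn-rich fibroblasts, although it was chosen with the others.

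**Figure D1:**
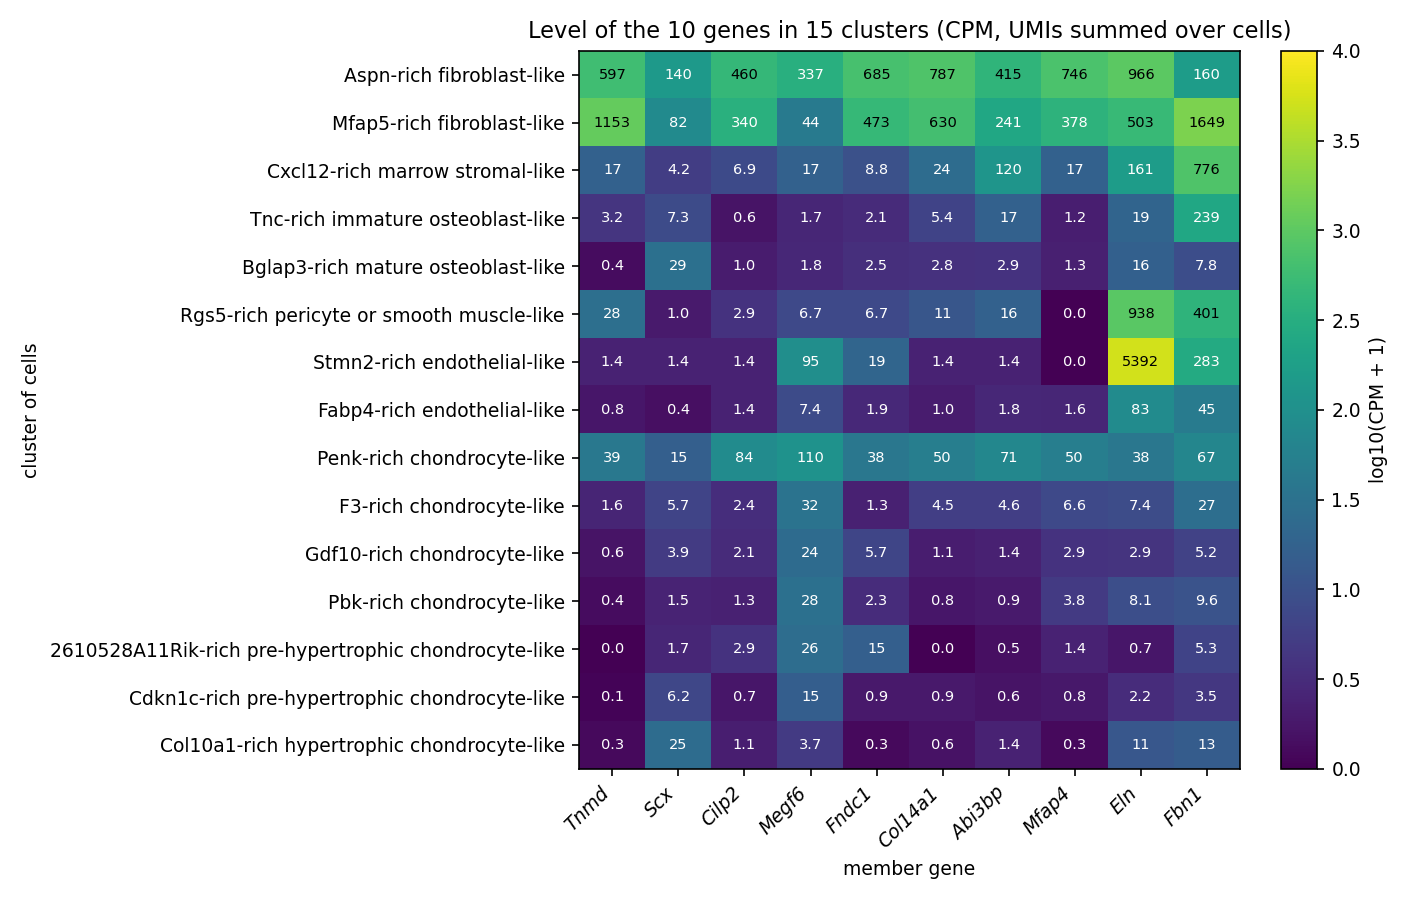
Heat map of the level (CPM, printed in each cell, colour on a log10(CPM + 1) scale) of the 10 genes (columns) in the 15 skeletal and vascular clusters (rows) of 1 library. Most genes are highest in the 2 fibroblast-like clusters at the top, while Eln is highest, at 5392 CPM, in the Stmn2-rich endothelial-like cluster, and the Penk-rich row stands out among the chondrocyte-like rows.

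The members held 33025 UMIs in all, 0.0241% of the UMIs of the cells kept. The fibroblast-like class, with 271 cells, held 46.2% of them (exact binomial 95% interval 45.7 to 46.8). Endothelial-like cells held 16.6%, marrow stromal-like cells 10.7%, chondrocyte-like cells 7.52%, immature osteoblast-like cells 6.96% and pericyte-like cells 4.44%. The share differed widely between the genes. Fibroblasts held 90.7% of the UMIs of Tnmd, 81.2% of Mfap4, 80.7% of Col14a1, 78.5% of Fndc1 and 76.6% of Cilp2. The share was 52.7% for Abi3bp, 33.3% for Fbn1, 31.6% for Scx, 22.4% for Megf6 and 21.8% for Eln. Hence most UMIs of Fbn1, Scx, Megf6 and Eln, by which the Aspn-rich cells were described, came from other cells.

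**Figure D2:**
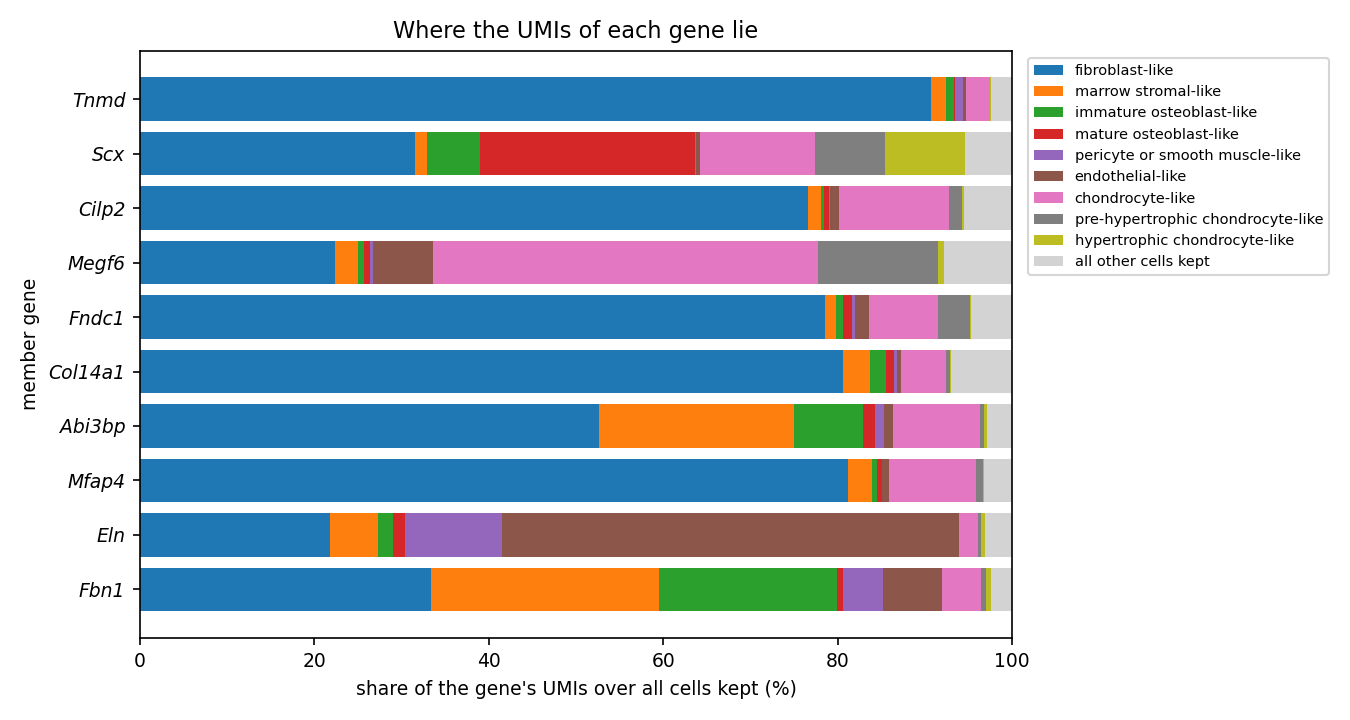
Share (%) of the UMIs of each gene, over all cells kept, that fell in each class of cells, as stacked bars with 1 bar per gene. The fibroblast-like part ranges from 90.7% for Tnmd to 21.8% for Eln.

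All 10 genes were past 2-fold higher in the fibroblast-like class than in the other skeletal and vascular classes together, with 1 CPM added to both levels. Of 9046 genes with at least 10 CPM on either side, 14.2% were past that fold. The rule used this contrast, and nothing is read from the count. The median log2 ratio was 5.66 over the members and 0.23 over all genes compared. In 9 of the 10 the fibroblast-like class had the highest level of all classes. Eln was the exception, at 938 CPM in pericyte-like and 681 CPM in fibroblast-like cells.

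Most Aspn-rich cells held most of the genes. The median cell had UMIs of 8 of the 10 genes, 66 of 115 cells had at least 8 and 21 had all 10. The median in the Mfap5-rich cluster was 6, with 33 of 156 cells at 8 or more and 2 with all 10. Clusters of other cells had medians of 0 to 2. Since cells differ in depth, each was thinned to 5000 UMIs, leaving out 4 Aspn-rich and 2 Mfap5-rich shallower cells. Fndc1 was then found in 87.4% and 77.9% of Aspn-rich and Mfap5-rich cells, Megf6 in 63.1% and 14.3%, Tnmd in 60.4% and 50% and Fbn1 in 42.3% and 75.3%. Before thinning the shares were 97.4% and 84.6% for Fndc1, 80.0% and 23.7% for Megf6, 66.1% and 54.5% for Tnmd, and 55.7% and 84.6% for Fbn1. In leukocyte-like cells, which should lack these genes, thinned shares were at most 1.10%, reached by Eln.

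Single cells varied more than the cluster levels show. In Aspn-rich cells Fndc1 ran from 0 to 2251 CPM with a median of 641, and Megf6 from 0 to 1312 CPM with a median of 272. Eln ran from 0 to 14410 CPM with a median of 238 in the Aspn-rich cluster, and from 0 to 8377 CPM with a median of 0 in the Mfap5-rich cluster. Tnmd in Mfap5-rich cells ran from 0 to 10483 CPM with a median of 126, and Fbn1 from 0 to 16070 CPM with a median of 344. Both genes therefore reached their high cluster level through part of the Mfap5-rich cells.

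Aspn-rich and Mfap5-rich fibroblasts were next compared gene by gene. Megf6 was the only member past 2-fold higher in the Aspn-rich cluster (7.54-fold), against 4% of 9120 genes. Fbn1 was the only member past 2-fold lower, at 0.0977 of the Mfap5-rich level, against 12.9% of the same genes. Mfap4 and Eln were 1.97-fold and 1.92-fold higher and Tnmd 0.518 of the Mfap5-rich level, all short of 2-fold. The median log2 ratio was 0.64 over the members and -0.22 over all genes compared. Because the genes were chosen as leading the Aspn-rich cells, higher levels there follow in part from the choice. Neither the fold of Megf6 nor this median is read further.

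High levels of Tnmd and high levels of Fbn1 were found in different cells of the Mfap5-rich cluster, although 67 of its 156 cells had UMIs of both genes. The 85 cells with a Tnmd UMI and the 71 without had similar depths, with medians of 9678 and 9790 UMIs. The level of Fbn1 was 260.5 CPM (228 to 296) in the first and 3103 CPM (2985 to 3224) in the second. Eln followed Fbn1, at 86.8 CPM (68.5 to 109) with and 939 CPM (874 to 1006) without Tnmd. Cilp2 went with Tnmd, at 625 CPM against 41.3 CPM, and so did Scx, at 139 CPM against 23.6 CPM. Yet the cells with the most Tnmd UMIs, 188, 111 and 89, had 0 UMIs of Cilp2. Abi3bp was 292 CPM against 187 CPM, a smaller step in the direction of Tnmd. Mfap4 was 471 CPM against 280 CPM, a step that rested on few cells. Single cells with a Tnmd UMI held 64, 53, 38 and 37 UMIs of Mfap4, and no direction is read for it.

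Ranking the Mfap5-rich cells by either gene showed this by level. Of the 39 cells with the most Fbn1, all at 909 CPM or more, 2 had a Tnmd UMI, against 83 of the other 117. Their Tnmd level was 16.99 CPM, and that of the other cells 1577 CPM. Of the 39 cells with the most Tnmd, 30 had an Fbn1 UMI, but at 206 CPM of Fbn1 against 2052 CPM in the other cells. Ranked by Eln, the 39 cells with the most had 4465 CPM of Fbn1 and the rest 630 CPM. The Aspn-rich cluster cannot show whether such a division exists there, because its cells held less Fbn1. Its 29 cells with the most Fbn1 began at 225 CPM, and the highest cell had 1317 CPM. Of these 29 cells, 22 had a Tnmd UMI, against 54 of the other 86. Fbn1 was 190 CPM in Aspn-rich cells with and 104 CPM in those without a Tnmd UMI. These splits were chosen after the levels were seen. The median mitochondrial share was 5.69% in Mfap5-rich cells with and 4.62% in those without a Tnmd UMI, and its part in the result was not tested.

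**Figure D3:**
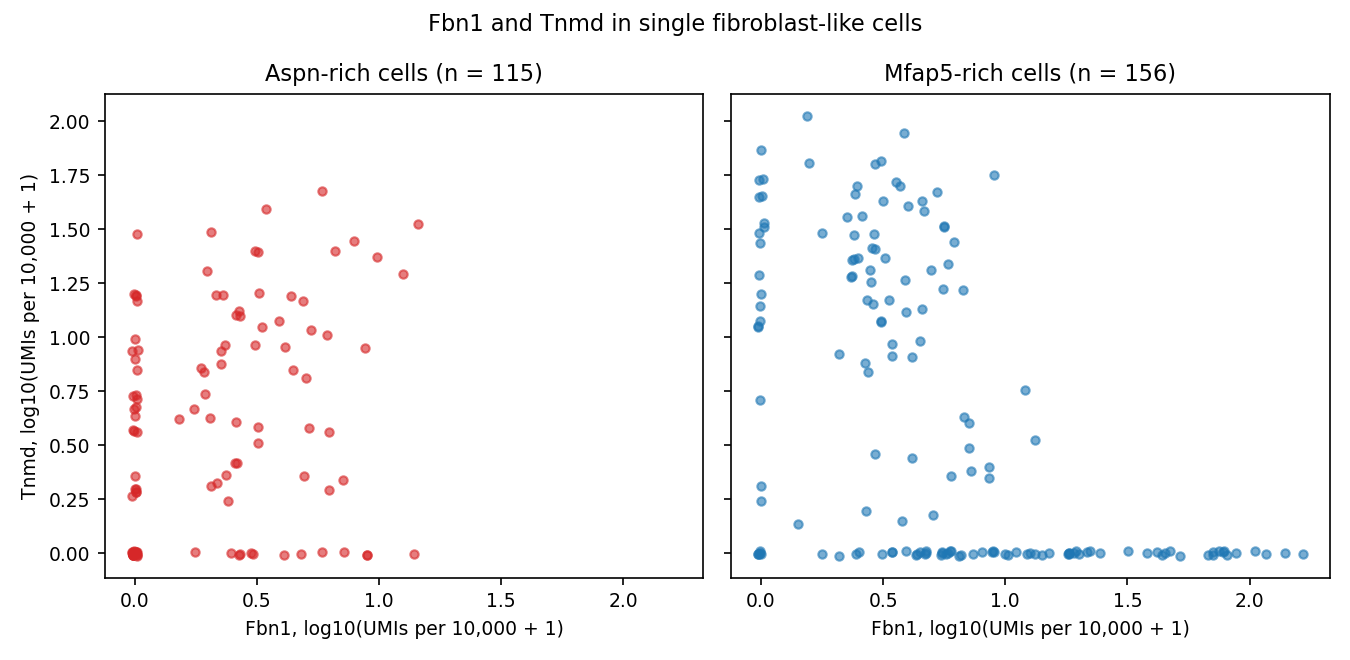
Tnmd (y axis) against Fbn1 (x axis) in single fibroblast-like cells, both as log10(UMIs per 10000 + 1), with 1 point per cell and a small random shift to separate points, for the Aspn-rich (115 cells, left) and the Mfap5-rich (156 cells, right) cluster. Among Mfap5-rich cells 2 of the 39 with the most Fbn1, all at 909 CPM or more, had a Tnmd UMI. In the Aspn-rich cluster 22 of 29 did, but these began at 225 CPM of Fbn1, so the sets are not alike.

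Clustering the 271 fibroblast-like cells again, without the 10 genes, gave 8 sub-clusters. A sub-cluster of 66 Mfap5-rich cells was led by Grem1 and Cyp26b1 and had 764 CPM of Thbs4 (a thrombospondin of tendon) and 355 CPM of Kera (the proteoglycan keratocan). Its Tnmd level was 2086 CPM (1971 to 2206), its Cilp2 level 924 CPM and its Scx level 148 CPM. Fbn1 was 215 CPM and Eln 78.5 CPM in these cells. They thus held the tendon genes with little elastin.

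Another 47 Mfap5-rich cells had the opposite make-up. Led by Ngp, Pi16 and Ly6a, with 839 CPM of Pi16 (a marker of adventitial fibroblasts), they had 4103 CPM of Fbn1 (3935 to 4276) and 1111 CPM of Eln (1025 to 1203). Tnmd was 21.9 CPM, and Cilp2, Scx and Megf6 were each 3.65 CPM, from 2 UMIs. Col14a1 (741 CPM), Fndc1 (482 CPM), Mfap4 (418 CPM) and Abi3bp (237 CPM) were also present, at levels of the same order as in the cells led by Grem1 for Col14a1 (471 CPM), Fndc1 (541 CPM) and Abi3bp (220 CPM). Mfap4 was lower in the cells led by Grem1, at 184 CPM with UMIs in 30 of 66 cells. The sub-cluster also had the highest summed level of leukocyte markers, 2934 CPM with 11 of 23 markers at 10 CPM and 6 at 0, among them the neutrophil gene Ngp at 618 CPM. The summed level was 156.6 to 1633 CPM in the other sub-clusters, and its part in the result was not tested.

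The Aspn-rich cells fell into 3 larger sub-clusters. In 40 cells led by Igfbp3 and Matn4, 5 members had their highest level of all sub-clusters, with Eln at 2578 CPM (2399.6 to 2766), Mfap4 at 1539 CPM, Col14a1 at 1366 CPM, Cilp2 at 1086 CPM and Abi3bp at 983 CPM. Tnmd was 796 CPM in the sum of these cells. Over the whole Aspn-rich cluster the 29 cells with the most Tnmd had 535 CPM of Eln and the other cells 1108 CPM, so the summed levels do not place both genes in the same cells. In 47 cells Megf6 (505 CPM) and Fndc1 (879 CPM) were highest, and Scx was 183.5 CPM. Haemoglobin genes led this sub-cluster, followed by Il1b, Cxcl2, Cd14 and the leukocyte markers Lyz2 and Tyrobp. It had 16578 CPM of erythroid markers, 5 of 9 at 10 CPM and 2 at 0, against 394 to 963 CPM in the others. The part of erythroid and leukocyte RNA in the result was not tested. In 18 cells led by Bglap3, Ostn and Alpl, genes of bone formation, most members were low. Cilp2 was 13.7 CPM, Fbn1 22.8 CPM, Abi3bp 36.5 CPM and Eln 54.7 CPM, but Fndc1 was 356 CPM and Scx 110 CPM (70.2 to 163).

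The remaining sub-clusters were small. The 23 cells led by the proliferation genes Pbk and Top2a together had all 10 genes, with Tnmd at 1184 CPM and Fbn1 at 979 CPM in sum. The medians per cell were 56.5 CPM and 175 CPM. A single cell held 188 Tnmd UMIs and 1 Fbn1 UMI, and another held 183 Fbn1 UMIs and 0 of Tnmd. In 16 cells led by Ighm and Vpreb3, genes of the B cell lineage, Tnmd was 2121 CPM and Mfap4 1114 CPM, while the median cell had 0 CPM of Cilp2. In 14 cells led by Cldn1 and Gjb2, genes of cell junctions, Cilp2 and Scx had 0 UMIs, and Fbn1 was 501 CPM. In so few cells, 0 is compatible with UMIs of the gene in up to 21.4% of cells.

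**Figure D4:**
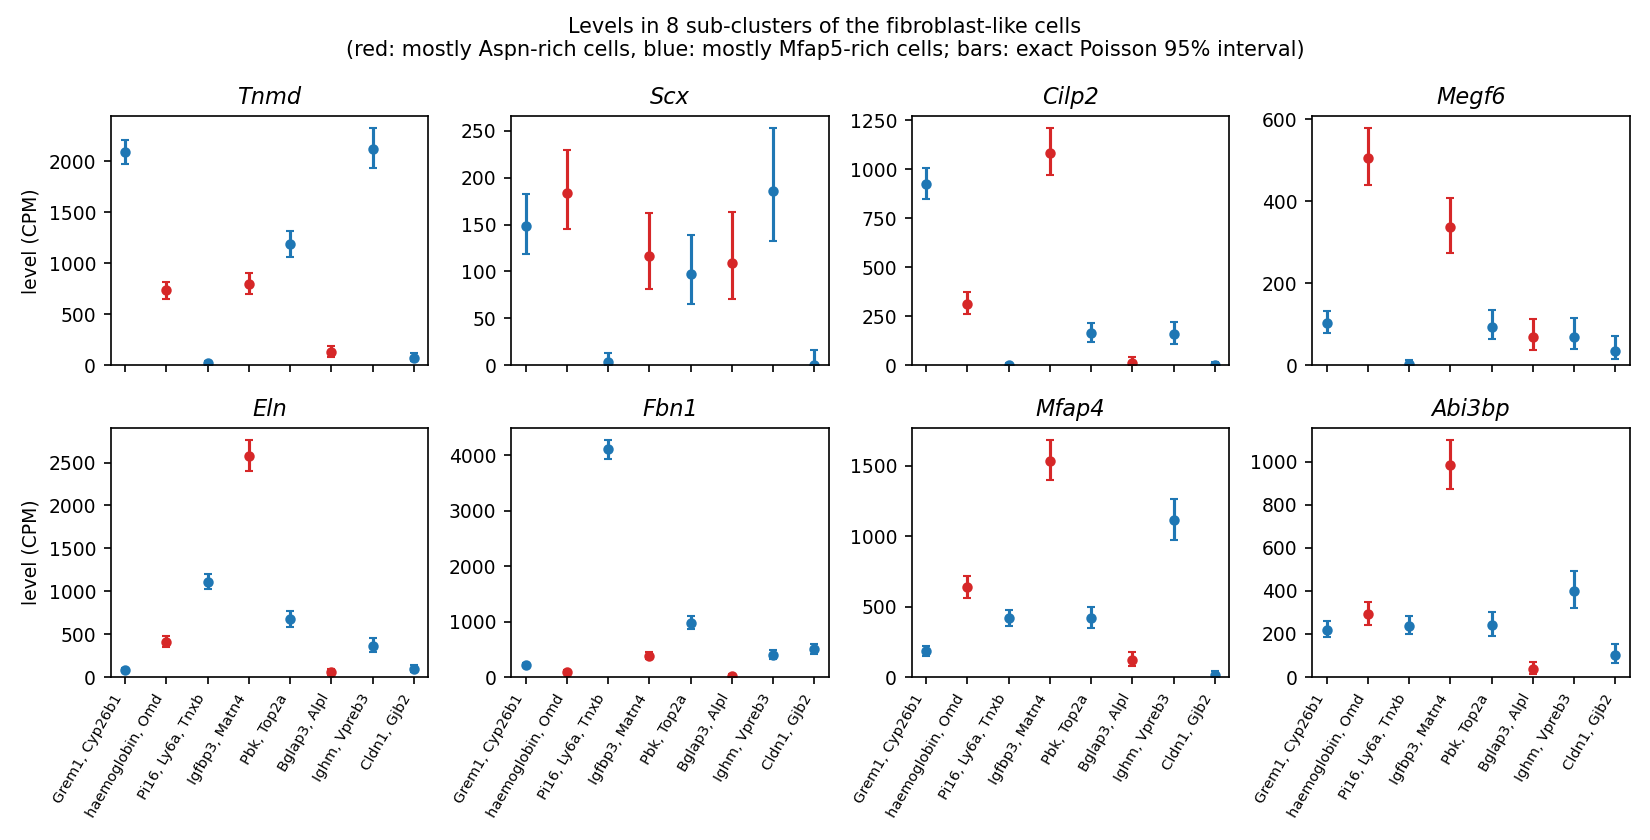
Level (CPM, linear axes) of 8 of the genes in the 8 sub-clusters of fibroblast-like cells, each named by leading genes, with exact Poisson 95% intervals, red for sub-clusters of mostly Aspn-rich and blue for mostly Mfap5-rich cells. Tnmd and Cilp2 are low where Fbn1 is highest (Pi16, Ly6a, Tnxb), and Eln peaks at 2578 CPM in the cells led by Igfbp3 and Matn4.

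Marrow stromal-like cells, 251 cells led by Cxcl12 (a chemokine that retains blood progenitors), had the second highest level of Fbn1 of all classes. Fbn1 was 776 CPM (746 to 808) and was found in 241 of the 251 cells. After thinning it was found in 89.4% of them, more than in either fibroblast cluster. Eln was 161 CPM (147 to 176) and Abi3bp 120 CPM (108 to 133). Against immature osteoblast-like cells, 7 of 7 members with at least 10 CPM on either side were past 2-fold higher, as were 5.28% of 8701 genes compared. Nothing is read from that count, since Mfap4, Tnmd, Col14a1 and Megf6 reached 10 CPM in the stromal cells only and so had to be higher there. Eln, Abi3bp and Fbn1, with at least 10 CPM in both classes, were 8.30-fold, 6.84-fold and 3.24-fold higher. Scx, under 10 CPM in both, was 4.24 CPM in stromal and 7.33 CPM in immature osteoblast-like cells. Erythroid markers summed to 52332 CPM in the stromal cells, all 9 at 10 CPM, and leukocyte markers to 2132 CPM. The 10 members stayed at or under 6.15 CPM in erythroid- and leukocyte-like cells. Osteoclast-like cells held 105 UMIs of Col14a1, 4.35% of its UMIs. The part of erythroid and leukocyte RNA in the stromal values was not tested.

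In osteoblasts, Fbn1 and Scx differed in opposite directions between the maturation classes. Immature osteoblast-like cells (584 cells, rich in the matrix gene Tnc) had 239 CPM of Fbn1 (228 to 250), and mature osteoblast-like cells (373 cells, rich in the osteocalcin-related gene Bglap3) 7.77 CPM (5.96 to 9.97). Scx was 7.33 CPM (5.55 to 9.497) in immature and 28.8 CPM (25.2 to 32.8) in mature cells. The intervals of the classes did not overlap for either gene. Abi3bp was 16.7 CPM (13.97 to 19.8) against 2.88 CPM (1.83 to 4.33), like Fbn1. Eln did not differ beyond its counting error, at 18.5 CPM (15.6 to 21.8) against 15.9 CPM (13.3 to 18.9). Of 4 members with at least 10 CPM in either class, 2 were past 2-fold higher in immature cells, Abi3bp and Fbn1, against 18.6% of 8349 genes, and both reached 10 CPM in the immature cells only. Thinned to 5000 UMIs, Scx was found in 11.5% of mature and 4.03% of immature osteoblast-like cells, and in 0.0816% of leukocyte-like cells.

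The tdTomato reporter divided these classes. Cells with more than 14 WPRE UMIs were called reporter cells, and made up 123 of 584 immature osteoblast-like, 128 of 373 mature osteoblast-like and 43 of 251 marrow stromal-like cells. Scx was higher in reporter cells of both osteoblast classes. It was 42.5 CPM (35.3 to 50.8) in mature reporter cells and 21.3 CPM (17.5 to 25.7) in the other mature cells, and 12.6 CPM (8.24 to 18.5) against 5.43 CPM (3.69 to 7.70) in immature cells. Eln went the other way, at 5.82 CPM (3.01 to 10.2) in immature reporter cells and 23.1 CPM (19.3 to 27.4) in the other immature cells, and at 23.3 CPM (12.4 to 39.8) against 192 CPM (175 to 210) in stromal cells. Fbn1 did not differ beyond its counting error, at 227.5 CPM (207 to 249) against 243 CPM (231 to 256) in immature cells. Tnmd, Mfap4, Megf6 and Fndc1 had 0 UMIs in the immature reporter cells, which allows up to 1.46 CPM at 3 counts. Over all immature osteoblast-like cells they were at 3.2, 1.2, 1.7 and 2.1 CPM. The UMIs behind these levels, 25, 9, 13 and 16, all lay in the 461 other cells of the class. These levels are of the same order as that limit, and the values of 0 are not read further.

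Only 1 of the 271 fibroblast-like cells was a reporter cell, so reporter and other fibroblasts were not compared. A lower limit of 1 WPRE UMI was met by 59 of the 271 cells, but also by 20.4% of leukocyte-like cells, in which Cre under Col10a1 is not known to act. Between fibroblasts with and without a WPRE UMI, 2 of the 10 members were past 2-fold apart, against 7.23% of 9166 genes. Tnmd was 1604 CPM with and 725 CPM without, and Eln 361 CPM with and 784 CPM without. A WPRE UMI was held by 39.4% of the 66 cells led by Grem1, which were high in Tnmd and low in Eln. It was held by 12.8% to 22.2% of cells in the other sub-clusters. The part of this mix in the result was not tested.

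Vessels held the highest elastin level in the data. A cluster of 72 endothelial-like cells, led by Eln itself and then by Stmn2, had 5392 CPM of Eln (5224 to 5565), 5.58 times the level of the Aspn-rich fibroblasts, and Eln was found in 55 of the 72 cells. These cells had 710 CPM of Gja4 (connexin 37, a gene of arterial endothelium) and 1547 CPM of Fbln5 (fibulin-5, which guides elastic fibre assembly). Other endothelial-like cells, 743 cells rich in Fabp4, had 82.9 CPM of Eln (77.1 to 89.1), 19.3 CPM of Gja4 and 64.5 CPM of Fbln5. Fbn1 (283 against 45.2 CPM) and Megf6 (94.7 against 7.35 CPM) were higher in the Stmn2-rich cells too. Pericyte or smooth muscle markers summed to 656 CPM in them, 9 of 11 at 10 CPM, with Acta2 at 89.1 CPM and Myh11 at 27.8 CPM, against 331 CPM in Fabp4-rich and 20211 CPM in pericyte-like cells. Mfap4 had 0 UMIs in the 72 Stmn2-rich cells, which is compatible with a UMI in up to 4.17% of such cells.

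Pericyte- or smooth muscle-like cells (99 cells, rich in Rgs5) had 938 CPM of Eln (880 to 999) and 401 CPM of Fbn1 (364 to 442), so both core genes of elastic fibres were present. Mfap4 was again at 0 in all 99 cells, which is compatible with a UMI in up to 3.03% of such cells and sets no limit on cells that express it. Tnmd was 27.9 CPM (18.7 to 40.1), found in 12.1% of cells. Against endothelial-like cells, 4 of 6 members compared, Abi3bp, Tnmd, Col14a1 and Fbn1, were past 2-fold higher, as were 13.7% of 9133 genes. Abi3bp, Tnmd and Col14a1 reached 10 CPM in pericyte-like cells only, so the count is not read further, and Fbn1 (6.33-fold) was the 1 that reached it in both. Eln was 1.99-fold higher than in all endothelial-like cells, and passed 2-fold once the Stmn2-rich cluster was left out. The pooled value hides opposite directions, since Eln in pericyte-like cells was above the 82.9 CPM of Fabp4-rich and below the 5392 CPM of Stmn2-rich cells.

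Cartilage held little of most of the genes, with Megf6 as the exception. Megf6 lay between 14.8 and 31.9 CPM in 5 of the 7 chondrocyte-like clusters, was 3.71 CPM (1.97 to 6.34) in HCs (104 cells led by Col10a1), and was highest in a cluster of 128 cells led by Penk (the opioid precursor proenkephalin), at 110 CPM (94.0 to 128). Thinned shares for Megf6 were 8.05% to 15.1% in the former 5 clusters and 35.7% in Penk-rich cells, against 0.245% in leukocyte-like cells. Scx was present in HCs, at 24.5 CPM (19.6 to 30.3), within the counting error of its level in mature osteoblast-like cells, and was found in 9.62% of HCs after thinning. Pre-hypertrophic chondrocytes and HCs together had 15.2 CPM of Megf6 against 31.7 CPM in the other chondrocyte-like cells, and 5.73 CPM of Fbn1 against 14.7 CPM. Both, of 2 members compared, were past 2-fold lower in this sum, against 4.86% of 7413 genes. The sum hides differences between the 2 classes. Fbn1 was 3.95 CPM in pre-hypertrophic chondrocytes but 13.4 CPM in HCs, within counting error of the 14.7 CPM. Megf6 was 17.9 CPM and 3.71 CPM in them. Among the other chondrocyte-like clusters Fbn1 ran from 5.17 CPM (Gdf10-rich) to 66.8 CPM (Penk-rich). In the sum, Fbn1 reached 10 CPM in the other chondrocyte-like cells only, and the count of members lower ranged from 0 to 7 with other settings.

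Every one of the 10 genes was past 2-fold higher in the Penk-rich cells than in the other chondrocyte-like cells, including pre-hypertrophic chondrocytes and HCs (8.80% of 7695 genes were). Megf6 was the 1 member with at least 10 CPM on both sides, and the other 9 passed that limit through the Penk-rich cells, so the count of 10 is not read further. Cilp2 was 83.8 CPM (69.9 to 99.6) against 1.70 CPM (1.34 to 2.13), Abi3bp 71.3 CPM (58.6 to 86.0) against 1.55 CPM (1.203 to 1.956), and Tnmd 39.3 CPM (29.96 to 50.5) against 0.538 CPM (0.345 to 0.8). The smallest fold was that of Scx, 2.34, at 15.1 CPM (9.54 to 22.6) against 5.85 CPM (5.16 to 6.60). Scrublet marked 1 of the 128 cells. The cells were also clustered and named anew without any barcode that Scrublet marked. In the chondrocyte-like cluster then highest in Penk, 9 of the 10 were past 2-fold higher.

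The Penk-rich cells were cartilage cells by their markers, with 78019 CPM of Col2a1 (collagen II) and all 12 chondrocyte markers at 10 CPM. Fibroblast markers summed to 2961 CPM, 8 of 14 at 10 CPM, against 23124 CPM in Aspn-rich and 20339 CPM in Mfap5-rich fibroblasts. Each member was set against its level in the fibroblast-like class, both clusters pooled. Megf6 reached 70.1% of that level, Abi3bp 23.2%, Cilp2 21.7% and Scx 14.4%, while the other 6 genes lay between 4.18% (Tnmd) and 9.70% (Mfap4). For Megf6 the pooled level hides a wide gap. Its 110 CPM in Penk-rich cells was below the 337 CPM of Aspn-rich and above the 43.8 CPM of Mfap5-rich fibroblasts. Genes that are not members stood at 3.68% (Aspn), 2.59% (Postn), 4.70% (Kera), 3.36% (Mfap5), 6.11% (Thbs4), 8.91% (Col3a1), 9.86% (Col1a1) and 42.9% (Dcn). The part of fibroblast RNA in the Penk-rich values was not tested. Only 4 of the 128 cells had UMIs of 8 or more members.

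**Figure D5:**
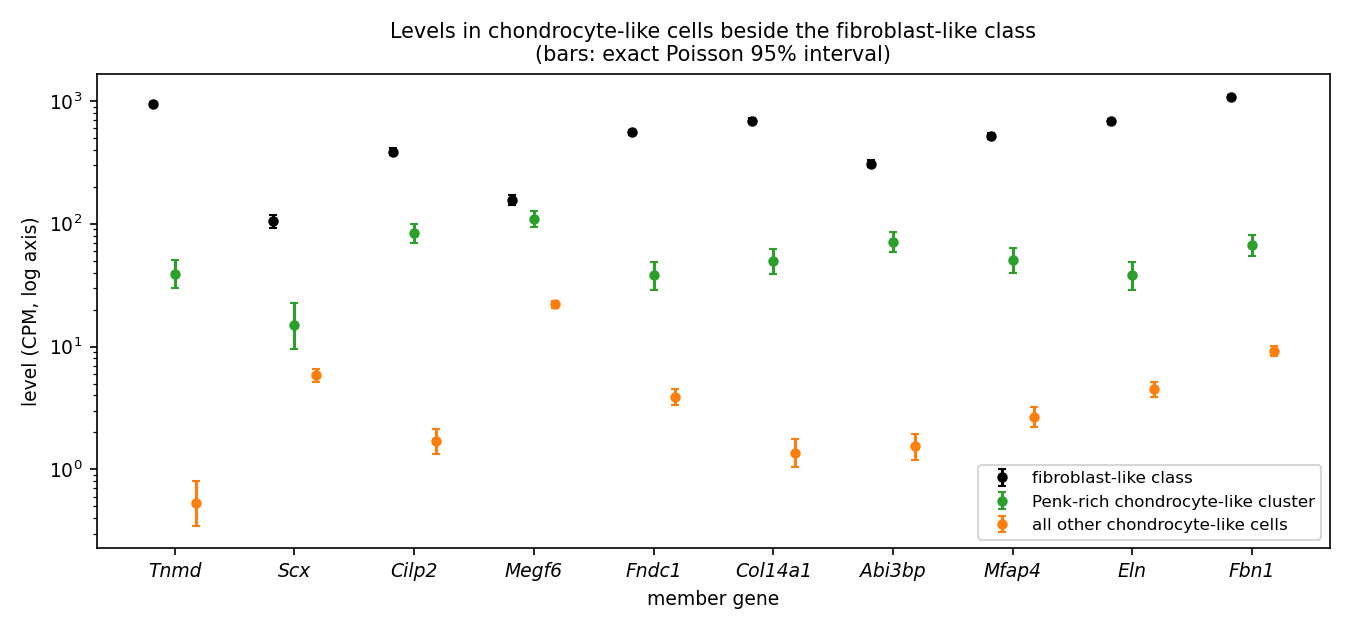
Level (CPM, log axis) of each gene in the fibroblast-like class (black), the Penk-rich chondrocyte-like cluster (green) and all other chondrocyte-like cells (orange), with exact Poisson 95% intervals. The Penk-rich level lies between the other 2 for every gene, nearest to the pooled fibroblast-like class for Megf6 (70.1%). For Megf6 it is above the level of the Mfap5-rich cluster alone (43.8 CPM).

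Other genes of elastic fibres and of tendon were read from lists that do not hold the members and were chosen with earlier results of these data known. Of 27 elastic fibre genes, 25 had at least 10 CPM in fibroblasts or in the other skeletal and vascular cells, and 18 were past 2-fold higher and 2 lower in fibroblasts. Their median log2 ratio was 1.86, against 0.23 over all genes. The highest were Mfap5 (a microfibril protein, 740 against 1.74 CPM), Adamtsl4 (45.04 against 1.34 CPM), Fbn2 (fibrillin-2, 332 against 16.2 CPM) and Emilin2 (72.3 against 4.05 CPM). The lowest were Mmrn2, an endothelial matrix gene (6.38 against 48.0 CPM), and Loxl4, a lysyl oxidase (2.13 against 33.1 CPM). Of 36 tendon genes, 33 were compared, and 25 were past 2-fold higher and 2 lower, with a median of 2.47. Thbs4 (396 against 1.48 CPM), Kera (153 against 0.185 CPM), Col3a1 (12377 against 366 CPM) and Postn (2198 against 84.6 CPM) led, and Comp (554 against 2595 CPM) and Prelp (219 against 510 CPM), which cartilage also makes, were lowest. Thbs4, Kera, Col3a1, Cilp, Dcn, Lum, Ogn and Pdgfra of the tendon list are also among the markers used to name the fibroblast-like class. Their higher levels there follow in part from the naming, so the tendon count is not read further. Angptl7, Ptx4 and Six2 of this list, and Adamtsl2 and Vtn of the other, were under 10 CPM on both sides.

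The same lists were read in the other comparisons, where the shares of all genes past 2-fold higher were those given above. Here, and for fibroblasts above, a list gene could reach 10 CPM on 1 side only. The counts of list genes past 2-fold therefore follow in part from that limit. In pericyte-like against endothelial-like cells, 12 of 21 elastic fibre genes were past 2-fold higher and 7 lower, and 23 of 26 tendon genes higher and 1 lower (13.7% of all genes were higher). Fbln5 (17.3 against 173 CPM) and Ltbp4 (55.8 against 294 CPM), which both take part in elastic fibre assembly, were among the 7 that were lower. Loxl1 (53.9 against 4.98 CPM) and Fbn2 (116 against 3.25 CPM) were higher, and reached 10 CPM in pericyte-like cells only. In Penk-rich against the other chondrocyte-like cells, 8 of 18 elastic fibre genes were past 2-fold higher and 1 lower, and 20 of 28 tendon genes higher and 2 lower (8.80% of all genes were higher). In marrow stromal-like against immature osteoblast-like cells 5 of 19 elastic fibre genes were higher and 1 lower (5.28% of all genes were higher). Of 28 tendon genes 1 was higher, a share near that of all genes, and 7 were lower. The median of the tendon list was -0.11, near the 0.04 of all genes. The share of all genes past 2-fold lower was not computed for these comparisons, so the counts lower are not read further. Between immature and mature osteoblast-like cells the medians of the lists (0.58 and 0.53) lay near that of all genes (0.49).

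The genes most like each member were found by Pearson correlation of log2(CPM + 1) over the 15 clusters, among 12700 genes. The clusters share 1 library and differ in depth, so r is a description. The members were chosen as high in fibroblasts, so a high r between them largely follows from the choice. The same holds for their r with other genes high in fibroblasts. Tnmd and Col14a1 had r = 0.98 over the clusters. Between the fibroblast sub-clusters led by Grem1 and by Ngp and Pi16, described above, they went in opposite directions. The gene most like both outside the members was Podn (podocan, r = 0.98 and 0.95), followed by C1qtnf2 and Cys1 for Tnmd and by Adamtsl4 and Cys1 for Col14a1. Mfap4 and Cilp2 shared Itgbl1 (r = 0.96 and 0.97) and Egfl6 (0.95 and 0.96), with Crabp1 next for Mfap4 and Agtr2 for Cilp2. Scx was most like Mkx, which encodes mohawk, another tendon transcription factor (r = 0.95), then Kdelr1 and Col24a1. Abi3bp was most like Tbx4, Dkk3 and 6330403K07Rik, and Fndc1 most like Dbp, Wnt9a and Egfl6. Eln followed Fbn1 (r = 0.82) more than Scx (0.15), and its closest genes were Sertad3, Cdan1 and Smarca2 (each 0.94). Fbn1 was most like Arhgef40, Parva and Serping1. Megf6 had the least close likeness, with Tpst1 at 0.93 and then 2510002D24Rik and Auts2 at 0.87 and 0.85.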

How the data were processed

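Single-cell RNA of the P6 tibia was measured in 1 droplet (10x) library. The values are UMI counts per gene and barcode, deposited by the authors without normalization. Per the labels, Cell Ranger 3.1.0, mm10 and Seurat 3 were used. The sources used here do not give the annotation release. The 4 entries are 1 library and were treated as 1 sample, so no test was made. A further deposited count matrix of reporter sequences gave the WPRE UMIs.

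The members and gene lists were chosen with earlier results of these data known. A cell was kept with 1600 genes or more, no more than 10% mitochondrial UMIs and no more than 50% UMIs of ribosomal protein genes. Clustering ran in scanpy 1.11.5 with igraph 0.11.9 (seed 1), under Python 3.11.15. Other packages were pandas 2.3.3, numpy 2.4.6, matplotlib 3.10.9, scipy 1.17.1, anndata 0.12.19 and scikit-learn 1.9.0. Counts were scaled to 10000 per cell and logged. Clustering used 2000 variable genes (the members left out), 30 principal components, 20 neighbours and Leiden resolution 1.

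Clusters were named from 16 marker lists, by the list with most markers among the top 10 genes by fold and at least 3 markers at 10 CPM. Limits for naming, set with the clusters in view, were under 50 CPM of Ptprc, and 5000 CPM of collagen genes or a mean z-score of 1 where markers tied or were not among the top genes. This left 2 clusters with 179 cells unnamed, of which Scrublet marked 124. Scrublet marked 588 of 14181 barcodes (4.15%) at an expected rate of 10%, and these were kept in the main result. Fibroblast-like cells were clustered again at resolution 0.8 with 1000 variable genes, 15 neighbours and 15 components.

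CPM were computed from summed counts. Ratios carry 1 CPM on both sides, for genes with at least 10 CPM on either side, and a gene past 2-fold was counted. Intervals are exact (Poisson for levels, Clopper-Pearson for shares) at 95%. The pooling step was checked on simulated data. The sub-clustering, the splits by Tnmd, Fbn1 and Eln, and the comparisons of Penk-rich, marrow stromal-like and WPRE-holding cells were chosen after seeing the data. All members are named. Of each list the 4 highest and 2 lowest ratios are named, and for each member the 3 most alike genes with at least 100 UMIs. Pericyte-list genes, markers and sub-cluster leading genes were named after their values were seen. Ccn2 of the tendon list is listed under its older symbol, Ctgf.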

Additional observations from a re-analysis of the deposited data

How the results depend on the processing

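Of the alternatives to the main results on the 10 genes, 86 kept the value within its counting error or the count within 1.5 times and 23 moved it. Of those to single genes and added comparisons, 93 kept it and 45 moved it. No ratio changed sign. The log2 ratio of Eln ranged most, from 2.15 as a mean over cells and 2.95 in the main result to 4.02 at 2000 genes or more per cell and 4.11 in cells of the main clusters with at most 5% mitochondrial UMIs. The count of members highest in fibroblast-like cells, 9, was 8 as a mean over cells and 10 in the latter cells, where Eln was no longer an exception. With the main settings the median log2 ratio of the members in fibroblast-like cells was 5.66. It was 5.37 with the members allowed among the variable genes, 5.43 as a mean over cells, 4.45 with 10 CPM added, and 6.01 for the Aspn-rich cluster alone. The fibroblast-like share of the members' UMIs, 46.2%, was 46.8% with the members allowed, 47.7% at 1000 genes or more per cell, 48.3% without barcodes marked by Scrublet, 49.9% as a mean over cells, 17.4% for the Aspn-rich cluster alone, and 49.6% in cells with at most 5% mitochondrial UMIs of the main clusters. The last 2 settings and the sub-clustering at other resolutions were chosen after seeing the data.

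The count of members higher in immature than in mature osteoblast-like cells was 2, and 4 both at Leiden resolution 0.6 and with a larger set of variable genes, both of which named no marrow stromal-like class, so that the classes compared held other cells. The count higher in pericyte-like than in endothelial-like cells was 4, and 2 in cells of the main clusters with at most 5% mitochondrial UMIs. The count lower in pre-hypertrophic chondrocytes and HCs was 2. It was 5 with the members allowed, 1 at 1000 or 2000 genes or more, 0 at 5% or 20% mitochondrial UMIs (the latter with no HC class), 1 without marked barcodes, 4 as a mean over cells, 0 with 10 CPM added, 7 with a minimum of 1 UMI, and 1 in cells of the main clusters with at most 5% mitochondrial UMIs. The causes were not tested. The log2 ratio of Tnmd between the sub-clusters highest in Thbs4 and in Pi16 was 6.51, and 7.60 at a finer sub-clustering, and that of Fbn1 was -4.25 with the direction kept in each alternative. At the finer setting the sub-cluster highest in Thbs4 held 15 cells in place of 66, and its Cilp2 level was 317 CPM in place of 924 CPM.

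Clustering only the 4864 cells with at most 5% mitochondrial UMIs named no fibroblast-like class, so its values are missing there, although 112 of the 271 fibroblast-like cells met this limit. The comparison of reporter with other fibroblasts was not run, because 1 cell was a reporter cell. No paired analysis was possible because the 4 entries hold 1 library and the columns carry no replicate, and there was no replicate to leave out. Depth limits the members at a few CPM, where 1 UMI changes a level.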
